A study of Mus musculus with 12 samples.

Results

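The miR-182, miR-183 and miR-96 cluster is a group of microRNAs that lie side by side in the mouse genome. Its members were taken by name, as mmu-miR-182-5p, mmu-miR-183-5p and mmu-miR-96-5p, and all 3 are among the 637 miRNA entries counted in each library. Small RNA was sequenced from exosomes, the small vesicles that cells release, of mouse ovarian granulosa cells, the cells that surround and feed the oocyte. There were 12 libraries in 4 groups of 3. CON cells were untreated, and FAC cells were given ferric citrate, an iron salt, at 100 µM. DFO cells had the same dose of ferric citrate together with deferoxamine mesylate, an iron chelator, at 100 µM. VE cells had that ferric citrate together with VITE, the antioxidant vitamin E, at 200 µM. In every group, 24 h of acclimation without exosomes preceded 48 h of culture. The sources used here do not say whether the 3 libraries of a group came from separate cultures, so the p-values measure only the spread between these libraries.

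A microRNA is cut from a hairpin in a longer transcript, and its seed, bases 2 to 8, pairs with messenger RNAs that are then repressed. The members of this cluster are made from a common primary transcript and are best known for their high levels in sensory cells such as hair cells and photoreceptors. In other tissues they are known to act on Foxo1, a transcription factor that in granulosa cells is linked to follicle atresia.

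The mature sequences are shown because the members have related but unequal seeds. They were taken from RefSeq (build GRCm38.p6) and are written 5′ to 3′, with the seed in capitals.
mmu-miR-183-5p: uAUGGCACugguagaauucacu
mmu-miR-96-5p: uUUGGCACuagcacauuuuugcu
mmu-miR-182-5p: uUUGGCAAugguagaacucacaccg

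The seeds were AUGGCAC in miR-183-5p, UUGGCAC in miR-96-5p and UUGGCAA in miR-182-5p, so no 2 members had the same seed. Bases 3 to 7 were UGGCA in all 3 members, and 5 of the 1679 mature miRNAs of the reference had these letters at that position. The seed of miR-96-5p also occurs in miR-1271-5p, which is not among the 637 entries. Over the 22 bases compared, miR-182-5p and miR-183-5p had 18 in common, with a longest shared run of 8 bases. How reads that match more than 1 entry were counted is not given in the sources used here.

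The hairpins lie on the minus strand of chromosome 6 (GRCm38.p6). Mir183 is at chr6:30169668-30169737, Mir96 at chr6:30169446-30169551 and Mir182 at chr6:30165918-30165992. Read along the transcript, Mir183 comes first, Mir96 follows after 116 bp and Mir182 after a further 3453 bp, and the 3 hairpins span 3820 bp. By its coordinates, the RefSeq long non-coding RNA gene Mirc35hg (chr6:30158640-30174125), also called linc_miR96, covers all 3. The opposite arms of the hairpins, the 3p miRNAs, are not among the 637 entries.

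The neighbours in the genome were counted very unequally. Over the 12 libraries, miR-183-5p had 155854 counts and miR-182-5p had 127091, which placed them at ranks 21 and 27 of 637. miR-96-5p had 1 count among 38557615, in CON replicate 3, and 0 in the other 11 libraries.

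**Figure D1:**
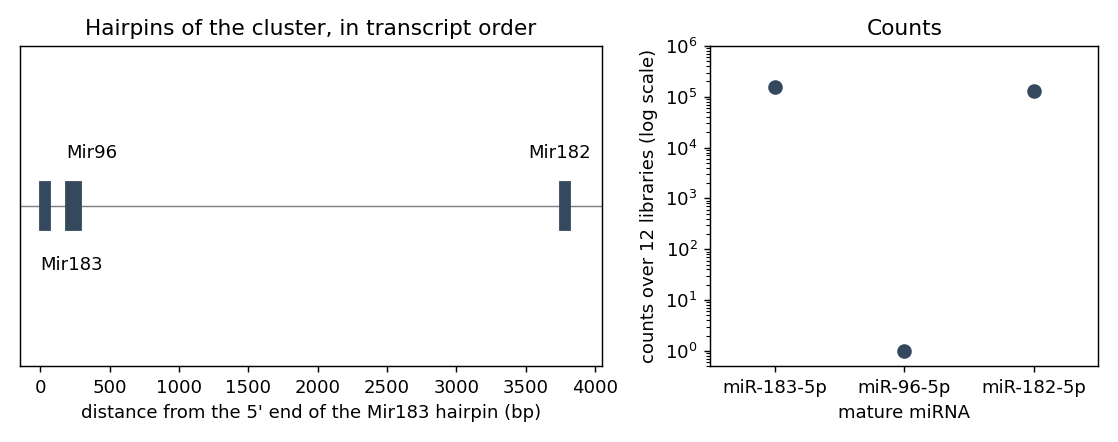
Left, the 3 hairpins by their distance in bp from the 5′ end of the Mir183 hairpin, to scale. Right, the counts of each mature miRNA summed over the 12 libraries, on a log scale, with 155854 for miR-183-5p, 1 for miR-96-5p and 127091 for miR-182-5p.

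miR-96-5p was therefore at or under the floor of 3 counts in each group, and no fold change between groups is given for it. In the FAC libraries, 0 of 18195370 miRNA counts allow a level of up to 0.165 CPM (counts per 1000000 miRNA counts) over the group. Set against this floor, the 90238 counts of miR-183-5p in FAC were at least 30079-fold higher, and the 83076 counts of miR-182-5p at least 27692-fold higher. Reads copied by PCR are not separate molecules, so such limits and intervals describe counting error alone.

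Depth differed strongly between the groups. The miRNA counts of a library ranged from 452021 to 7565362, while the library totals, computed as count divided by RPM (reads per 1000000 reads of the library), lay between 22631206 and 24845945. miRNAs made up 1.997 to 4.998% of the total in CON, 21.6 to 30.4% in FAC, 5.53 to 19.9% in DFO and 9.20 to 14.6% in VE. A level can thus be expressed relative to the other miRNAs or to the whole library, and both are given. In such bulk samples, fewer vesicles or cells of a type and less RNA in each cannot be told apart.

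miR-182-5p, which among its known targets has Foxo1, was counted in every library. Its raw counts were 724, 669 and 1167 in CON replicates 1 to 3 and 55935, 16388 and 10753 in FAC. They were 2931, 17246 and 2897 in DFO and 1841, 8974 and 7566 in VE. Even the smallest of these counts, 669, gave a 95% Wilson interval of 1372 to 1596 CPM before normalization. Such an interval is narrow beside the differences between replicates.

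Relative to the miRNA counts, after TMM normalization, miR-182-5p stood at 593, 1761 and 1835 CPM in CON and at 6551, 2188 and 2184 CPM in FAC. It stood at 1010, 3092 and 2174 CPM in DFO and at 832, 3271 and 2378 CPM in VE. All 3 FAC libraries lay above all 3 CON libraries, but FAC replicates 2 and 3 were only slightly above CON replicate 3, and FAC replicate 1 stood alone at the top. The DFO and VE libraries spread across the range of CON and the lower part of FAC. The means were 3641 ± 2520 in FAC, 2160 ± 1234 in VE, 2092 ± 1044 in DFO and 1396 ± 697 CPM in CON (SD, n = 3 each), and no neighbours in this order differed beyond their spread.

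miR-183-5p had 1018, 1365 and 2885 raw counts in CON and 49347, 23341 and 17550 in FAC. It had 4299, 21584 and 2610 in DFO and 3588, 14145 and 14122 in VE. Its counts exceeded those of miR-182-5p in 10 of the 12 libraries, all but FAC replicate 1 and DFO replicate 3.

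On the normalized scale miR-183-5p was at 834, 3594 and 4536 CPM in CON and at 5779, 3117 and 3564 CPM in FAC. It was at 1481, 3870 and 1959 CPM in DFO and at 1621, 5156 and 4438 CPM in VE. Here the groups overlapped throughout, with CON replicate 3 above 2 of the FAC libraries. The means were 4154 ± 1426 in FAC, 3738 ± 1869 in VE, 2988 ± 1924 in CON and 2437 ± 1264 CPM in DFO (SD, n = 3 each), and again no neighbours in the order differed beyond their spread.

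Relative to the whole library, both miRNAs were lowest in CON. miR-182-5p was at 29.9, 29.6 and 47.2 RPM in CON and at 2251, 680 and 439 RPM in FAC, with 120, 702 and 117 RPM in DFO and 76.0, 370 and 312 RPM in VE. miR-183-5p was at 42.0, 60.3 and 117 RPM in CON and at 1986, 968 and 716 RPM in FAC, with 176, 879 and 105 RPM in DFO and 148, 583 and 583 RPM in VE. On this scale the CON libraries lay below all other libraries for miR-182-5p, and for miR-183-5p only DFO replicate 3 fell within the CON range.

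**Figure D2:**
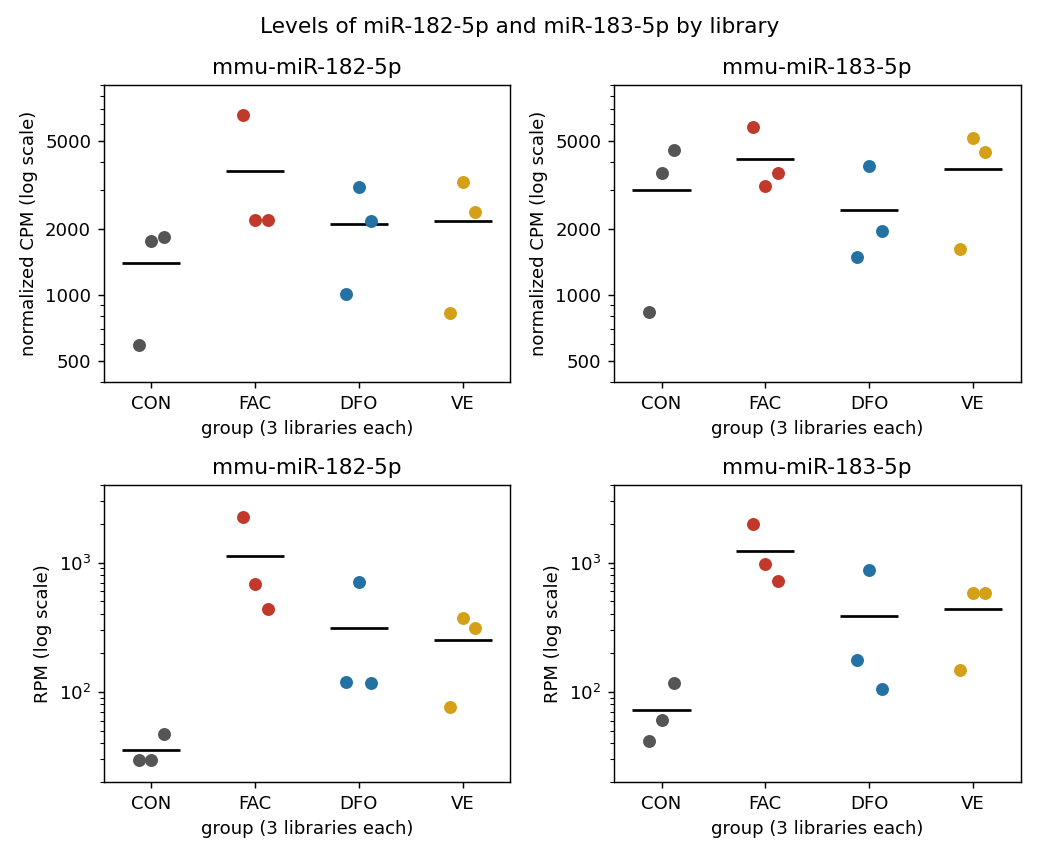
Levels of miR-182-5p (left) and miR-183-5p (right) in the 12 libraries, as normalized CPM relative to miRNA counts (top) and as RPM relative to the library (bottom), all on log scales, with points for libraries and lines for group means. FAC and CON are apart in both lower panels and for miR-182-5p at the top, where the FAC points begin at 2184 CPM and the CON points end at 1835 CPM.

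The comparison of FAC with CON asks what iron loading changes in the exosomes. With edgeR's quasi-likelihood test, the log2 fold change of miR-182-5p was 1.38 (standard error 0.64, unadjusted p = 0.0312), a 2.61-fold higher level in FAC that was past the threshold of a 1.5-fold change and an unadjusted p under 0.05. It did not hold after adjustment over the 547 tested entries (adjusted p = 0.466 in edgeR). The spread common to the tested entries was wide, with a biological coefficient of variation of 1.57. That of the members was lower, 0.833 for miR-182-5p and 0.814 for miR-183-5p. An adjusted p over 0.05 does not show that a level was unchanged. For miR-183-5p the log2 fold change was 0.48 (standard error 0.59, unadjusted p = 0.423, adjusted p = 0.663 in edgeR). Thus 1 of the 2 testable members was past the threshold, where 9.51% of all tested entries were, and 0 of 2 had an adjusted p under 0.05, where 0.183% of entries did. The FAC libraries were all above the CON libraries for 1 of 2 members in normalized CPM (10.1% of entries) and for 2 of 2 in RPM (31.4% of entries).

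The call for miR-182-5p rested on single libraries. Without FAC replicate 1 its log2 fold change was 0.62 (unadjusted p = 0.391, adjusted p = 0.738 in edgeR), and without CON replicate 1 it was 1.02 (unadjusted p = 0.145, adjusted p = 0.705 in edgeR). An exact permutation test of log2 CPM in 3 FAC against 3 CON libraries gave p = 0.1 for miR-182-5p, the smallest that this design allows, and p = 0.6 for miR-183-5p (two-sided).

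The position of the pair among all miRNAs depended on which miRNAs were used as reference. The median log2 fold change between FAC and CON was 1.38 over all 547 tested entries, so miR-182-5p lay 0.01 above it and miR-183-5p 0.90 below it on the log2 scale, with 50.3% and 41.7% of entries lower. Of the 637 entries, only 158 were counted in all 12 libraries. Over the 129 entries with a mean of at least 100 CPM, a limit chosen after the values were seen, the median was -0.18. Against this median, miR-182-5p lay 1.57 and miR-183-5p 0.66 higher on the log2 scale, with 88.4% and 68.2% of the abundant entries lower.

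Relative to library read totals, both miRNAs were higher in FAC than in CON. The log2 fold change was 4.98 for miR-182-5p (standard error 0.94, adjusted p = 2.04e-05 in edgeR). It was 4.07 for miR-183-5p (standard error 0.88, adjusted p = 0.000183 in edgeR). Both members were thus past the threshold and passed the adjusted test, where 29.1% and 16.3% of all tested entries did. Under this scaling the median of all tested entries was itself 4.35 and that of the abundant entries 2.95. Of all tested entries, 55.8% lay lower than miR-182-5p and 46.3% lower than miR-183-5p. Of the abundant entries, 92.2% and 76.7% did. The miRNA share of the library was higher in FAC as well, and its part in these values was not tested.

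Log2 CPM of the members was also compared between FAC and the 9 other libraries together. The exact permutation p was 0.155 for miR-182-5p and 0.327 for miR-183-5p (two-sided, smallest possible p 0.00909). On log2(RPM + 1) the exact p was 0.0273 and 0.0182. These p-values are not adjusted, and the 9 libraries pool CON, DFO and VE. Against the 3 CON libraries alone, the exact p on log2(RPM + 1) was 0.1 for both members, the smallest possible.

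The DFO and VE groups ask whether an iron chelator or an antioxidant alters the effect of the iron load. Between FAC and DFO, the log2 fold change was 0.80 for miR-182-5p (standard error 0.63, unadjusted p = 0.207, adjusted p = 0.458 in edgeR). It was 0.77 for miR-183-5p (standard error 0.60, unadjusted p = 0.196, adjusted p = 0.458 in edgeR). Neither was past the threshold, where 12.2% of entries were, or had an adjusted p under 0.05, where 0.914% did. The medians over all and over abundant entries were 0.66 and 0.20, and the groups overlapped for both members. Without FAC replicate 1, the log2 fold change fell to 0.02 for miR-182-5p (unadjusted p = 0.977 in edgeR) and to 0.37 for miR-183-5p (unadjusted p = 0.575 in edgeR). Relative to library read totals it was 1.84 for miR-182-5p and 1.66 for miR-183-5p. The medians under this scaling were 1.88 over all and 1.48 over abundant entries, so both members lay below the median of all entries. There 2 of 2 members were past the threshold, as were 13.7% of entries, and 0 of 2 passed the adjusted test, as 2.74% did.

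Between FAC and VE, the log2 fold change was 0.75 for miR-182-5p (standard error 0.63, unadjusted p = 0.234, adjusted p = 0.538 in edgeR). For miR-183-5p it was 0.15 (standard error 0.59, unadjusted p = 0.797, adjusted p = 0.985 in edgeR). Again 0 of 2 members were past the threshold (9.32% of entries) and 0 of 2 passed the adjusted test (0.366% of entries). The medians were 0.63 over all and -0.03 over abundant entries. Without FAC replicate 1, the log2 fold change was 0.15 for miR-182-5p and -0.04 for miR-183-5p, and without VE replicate 1 it was 0.37 and -0.21. Relative to library read totals it was 2.15 for miR-182-5p and 1.48 for miR-183-5p. The medians under this scaling were 1.88 over all and 1.29 over abundant entries. There 1 of 2 members, miR-182-5p, was past the threshold (14.8% of entries) and 0 of 2 passed the adjusted test (1.1% of entries).

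DFO and VE were also set against CON, a comparison that shares its control libraries with the one above. For miR-182-5p the log2 fold change was 0.58 in DFO (standard error 0.63, unadjusted p = 0.356, adjusted p = 0.843 in edgeR) and 0.63 in VE (standard error 0.63, unadjusted p = 0.319, adjusted p = 0.692 in edgeR). For miR-183-5p it was -0.29 in DFO (standard error 0.59, unadjusted p = 0.620, adjusted p = 0.953 in edgeR) and 0.32 in VE (standard error 0.59, unadjusted p = 0.585, adjusted p = 0.981 in edgeR). None of these was past the threshold, where 7.68% of entries were in DFO and 10.4% in VE, or passed the adjusted test, where 0.548% and 2.01% did. Relative to library read totals, both members were past the threshold in both comparisons. miR-182-5p also passed the adjusted test there, with a log2 fold change of 3.14 in DFO (adjusted p = 0.0161 in edgeR) and 2.83 in VE (adjusted p = 0.0444 in edgeR). For miR-183-5p the log2 fold change was then 2.41 in DFO (adjusted p = 0.0764 in edgeR), with its sign turned, and 2.58 in VE (adjusted p = 0.0536 in edgeR). Under this scaling, 17% of entries in DFO and 21.6% in VE were past the threshold, and 3.11% and 2.93% passed the adjusted test. The medians over all and over abundant entries were then 1.45 and 1.65 in DFO and 0.99 and 1.85 in VE. With RLE factors the sign of miR-183-5p in VE against CON turned (-0.05). A p that misses the threshold does not show that the groups were alike: the biological coefficient of variation between replicates was 0.833 for miR-182-5p and 0.814 for miR-183-5p.

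**Figure D3:**
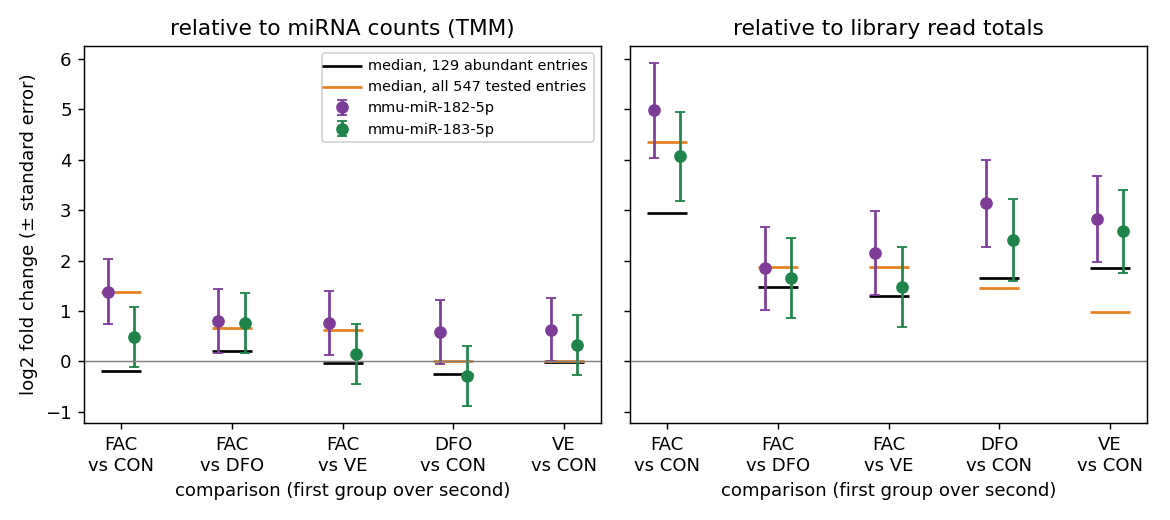
Log2 fold changes of both members in 5 comparisons, as points with standard errors from edgeR, scaled to miRNA counts (left) or library read totals (right), with bars for the medians of all 547 tested entries and of 129 abundant entries. Between FAC and CON, miR-182-5p lies at 1.38 on the left, at the median of all entries and above that of abundant ones (-0.18), and both members lie above 4 on the right.

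Across the 12 libraries miR-182-5p and miR-183-5p went up and down together. Their log2 CPM correlated with a Pearson r of 0.879 (permutation p = 9e-05, adjusted over 3 relations 0.00027) and a Spearman rho of 0.811 (permutation p = 0.00218, adjusted 0.00654). Without the lowest and the highest library for miR-182-5p, CON replicate 1 and FAC replicate 1, r was 0.795. After the group means were subtracted, r was 0.920, so the relation was also seen between replicates of a group. In each pair of values, both miRNAs share their library and its depth.

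Each of the 2 miRNAs was the most alike entry to the other among 302 entries counted in at least 6 libraries, by Spearman rho of log2 CPM. For miR-182-5p the next were miR-186-5p (rho 0.755) and miR-146a-5p (rho 0.727). For miR-183-5p they were miR-30c-5p (rho 0.692) and miR-30a-3p (rho 0.650).

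Although they moved together, the pair did not keep a fixed proportion. miR-182-5p made up from 28.8% of the pair's counts in CON replicate 3 (95% Wilson interval 27.4 to 30.2%) to 53.1% in FAC replicate 1 (52.8 to 53.4%). The ratio of miR-182-5p to miR-183-5p was 0.711, 0.490 and 0.405 in CON and 1.13, 0.702 and 0.613 in FAC. It was 0.682, 0.799 and 1.11 in DFO and 0.513, 0.634 and 0.536 in VE. The mean ratio was 0.535 ± 0.158 in CON, 0.816 ± 0.278 in FAC, 0.864 ± 0.221 in DFO and 0.561 ± 0.065 in VE (SD, n = 3 each). CON and FAC overlapped, as did DFO with both, while all 3 VE libraries lay below all 3 DFO libraries. This last difference was noticed in the values and was not tested.

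**Figure D4:**
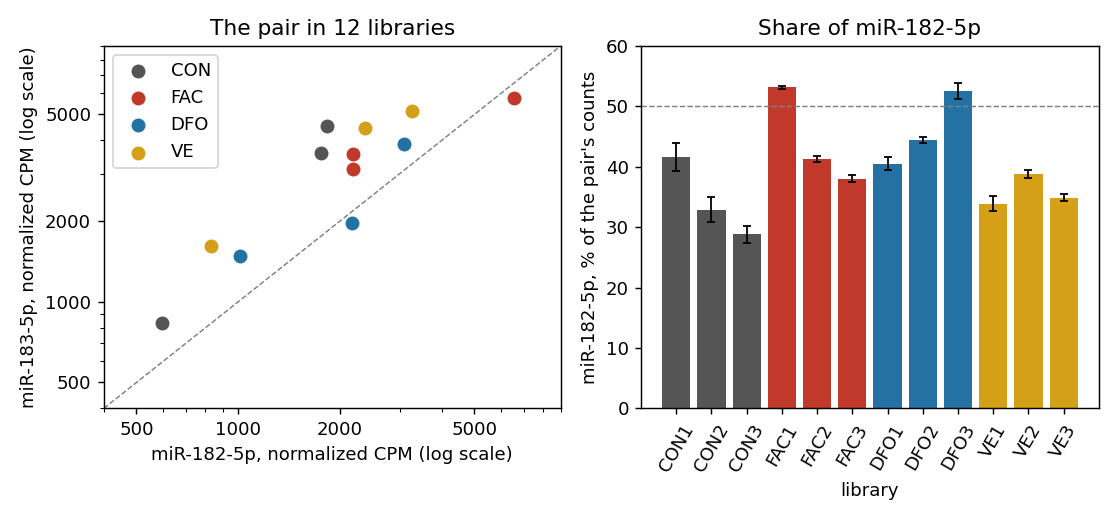
Left, miR-183-5p against miR-182-5p in normalized CPM on log scales, 1 point a library, with a dashed line of equal levels. Right, miR-182-5p as a percentage of the counts of both miRNAs in each library, with 95% Wilson intervals, where only FAC replicate 1 (53.1%) and DFO replicate 3 (52.6%) are above the dashed line at 50%.

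The level of the pair was also set beside the miRNA share of the library. For miR-182-5p, r was 0.635 (permutation p = 0.0261, adjusted 0.0391) and rho 0.657 (permutation p = 0.0245, adjusted 0.0367), but without the 2 libraries farthest in miRNA share r was 0.478. For miR-183-5p, r was 0.435 (permutation p = 0.157) and rho 0.266 (permutation p = 0.403). The share itself differed between the groups, so depth and treatment cannot be told apart in these relations.

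Other miRNAs known to act on Foxo1 were set beside the pair. Of 9 listed, 6 were among the tested entries. Of these 6, 0 were past the threshold between FAC and CON, where 9.51% of all entries were. Their median log2 fold change was 0.81, below the 1.38 of all tested entries. In each of the FAC comparisons with DFO and VE, 1 member of the list was past the threshold upward and 1 downward, 2 of 6 beside 12.2% of all entries against DFO and 9.32% against VE. miR-27b-3p was higher in FAC than in DFO (log2 fold change 1.63, adjusted p = 0.248 in edgeR) and than in VE (adjusted p = 0.446 in edgeR). miR-9-5p was lower (adjusted p = 0.124 and 0.344 in edgeR), with 0 counts in all FAC and all CON libraries, 0, 13 and 198 in DFO, and 40, 22 and 27 in VE. It reached the filter of 10 counts through DFO and VE alone, so only a lower level in FAC was possible.

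Among 6 sensory and neuronal miRNAs, 4 were tested, and 0 were past the threshold between FAC and CON, where 9.51% of all entries were. In both other FAC comparisons, 2 of 4 were lower in FAC at the unadjusted threshold, miR-9-5p and miR-204-5p, a miRNA of the retina, beside 12.2% of all entries against DFO and 9.32% against VE. Neither passed adjustment, with an adjusted p for miR-204-5p of 0.0603 against DFO and 0.0618 against VE in edgeR. miR-204-5p had 0 counts in CON and FAC, 143, 0 and 107 in DFO, and 152, 102 and 120 in VE. Both entries reached the filter of 10 counts through DFO and VE alone, so only a lower level in FAC was possible. Their calls therefore add nothing to the counts. miR-9-5p is also on the Foxo1 list. The sensory and neuronal list summed to between 24.3 and 484 CPM of the miRNA counts in the 12 libraries. The miR-200 family, which marks epithelium, summed to between 0 and 227 CPM. Of its 4 tested members, 0 were past the threshold in any FAC comparison. Of all entries, 9.51% were against CON, 12.2% against DFO and 9.32% against VE.

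Markers of the cells that the cultures could hold were checked in the same way. The granulosa markers were listed for their known abundance in these cells, but none defines them. Of 5 listed, 4 were present, with 70237 counts over the 12 libraries for miR-21a-5p, 12349 for miR-224-5p, 606 for miR-132-3p and 81 for miR-212-3p. miR-132-3p and miR-212-3p were thus low here, and miR-212-3p was counted in only 2 of the 12 libraries. The 4 present markers summed to 1862 to 2383 CPM in CON, 1340 to 3820 in FAC, 907 to 1644 in DFO and 1178 to 1535 in VE. In the FAC comparisons, the only ones in which list members were counted, 0 of these 4 were past the threshold. The shares of all entries were 9.51% against CON, 12.2% against DFO and 9.32% against VE. Oocyte and early embryo markers were near 0, with 2 of 5 present and at most 42.9 CPM. Erythroid markers summed to 26887 to 55192 CPM in CON, 8223 to 97419 in FAC, 17639 to 83250 in DFO and 83225 to 168568 in VE. These sums mostly follow the joint entry of miR-486a-5p and miR-486b-5p, with 2153154 counts over the 12 libraries, beside 27198 for miR-451a. The remaining listed marker, miR-144-3p, had 1 count and was not tested. Of these, 2 of 2 tested entries, miR-451a and the joint entry, were past the threshold downward in FAC against VE (9.32% of all entries). The joint entry passed adjustment (adjusted p = 0.00453 in edgeR) and miR-451a did not (adjusted p = 0.444 in edgeR). Stroma markers summed to 28177 to 110107 CPM in CON, 36159 to 75229 in FAC, 22772 to 42724 in DFO and 13073 to 18746 in VE. The sums mostly follow miR-143-3p, with 1607438 counts, beside 7984 for the next, miR-145a-5p. Of the 4, 1, miR-143-3p, was past the threshold upward in FAC against VE (9.32% of all entries). Its adjusted p was 0.0566 in edgeR. Leukocyte markers stayed between 1.80 and 356 CPM, with 0 of 3 tested past the threshold in the FAC comparisons, beside the shares given above. For 0 of the 8 lists were the FAC and CON libraries apart. Some lists were apart between other groups, which was noticed in the values and not tested. The Foxo1 list summed to 2022 to 5574 CPM in FAC, but to at most 1678 in DFO and 1459 in VE. The part of these cell types in the levels of miR-182-5p and miR-183-5p was not tested.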

How the data were processed

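The authors deposited, for each of 12 libraries, the counts of reads on 637 miRNA entries and the same values as RPM (in a column named TPM). The submitters' processing notes name the build mm9. The aligner and miRNA database are not given in the sources used here. Entries whose counts over all libraries reached 10 (547 entries) were tested in 1 fit of all 4 groups with edgeR 4.0.16 (quasi-likelihood test, TMM, Benjamini-Hochberg adjustment) in R 4.3.3. Counts divided by RPM gave the library totals. Single values were compared by exact permutation tests, and correlations by 100000 permutations (SciPy 1.17.1). Alternatives were RLE factors, library read totals, no filter, a replicate block, DESeq2 1.42.0, limma 3.58.1 on log2(RPM + 1) and log2(RPM + 0.1), and leaving out each library. The scripts were tested on simulated data, where the edgeR test recovered changed entries at a small spread between replicates but not at a spread near the common one of these libraries. The spread of the members themselves was not simulated. At the small spread, some unchanged entries were called too, more with all changes upward than with changes in both directions. An earlier run with upward changes alone exceeded the limit set for such calls, and changes in both directions were then used for that limit. Named entries were the members, entries of the same seed, the 3 most alike to each member and listed entries past the threshold. The members and lists were chosen with earlier results of these data known. Sequences and coordinates are RefSeq's on GRCm38.p6, and none was converted from mm9. Of the 637 entries, 547 matched a mature miRNA of the reference by name.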

Additional observations from a re-analysis of the deposited data

How the results depend on the processing

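For miR-182-5p between FAC and CON, the call was lost with RLE factors (log2 fold change 1.10) and with DESeq2 (1.10). With each library left out it ranged from 0.62 to 1.79. miR-183-5p in the same comparison passed the threshold with library read totals (4.07) and in limma on log2(RPM + 1) (4.04) and log2(RPM + 0.1) (4.06), and ranged from 0.03 to 1.04 with libraries left out. Between FAC and DFO, both members passed it with library read totals (miR-182-5p 1.84, miR-183-5p 1.66) and in limma on log2(RPM + 1) (2.02 and 2.13). Between FAC and VE, miR-182-5p did so under the same settings (2.15 and 2.08), and miR-183-5p ranged from -0.21 to 0.47 with libraries left out. None of the FAC against DFO or VE values had an adjusted p under 0.05 in any of these fits, but miR-182-5p did with library read totals in DFO against CON (3.14) and VE against CON (2.83), and both members passed the unadjusted threshold there and in limma on log2(RPM + 1). With libraries left out, miR-182-5p ranged from 0.02 to 1.19 and miR-183-5p from 0.37 to 1.27 between FAC and DFO, and miR-182-5p from 0.15 to 1.21 between FAC and VE. The sign of miR-183-5p in DFO against CON turned with library read totals (2.41), limma (1.91 and 1.93) and without CON replicate 3 (0.25; from -0.80 to 0.25 with libraries left out), and in VE against CON with RLE factors (-0.049) and DESeq2 (-0.049) and without CON replicate 1 (from -0.12 to 0.70 with libraries left out). Entries past the threshold numbered 52 between FAC and CON, but 159 with library read totals and 195 and 203 in limma, and 33 to 63 with libraries left out. The 67 between FAC and DFO became 75 with library read totals, 124 and 127 in limma, and 41 to 69 with libraries left out. The 51 between FAC and VE became 81 with library read totals, and 113 and 97 in limma, and 25 to 61 with libraries left out. The lowest of these 3 ranges came without FAC replicate 1. Over all 547 tested entries, same-numbered libraries did not deviate together (mean r 0.00421 over 18 pairs, -0.00202 over 36 others). This does not speak for the members alone: in normalized CPM, replicate 1 was the lowest library of CON, DFO and VE for both, and the highest of FAC. With the replicate number as a block, miR-182-5p between FAC and CON stood at 1.69 (unadjusted p = 0.0176 in edgeR) and 32 entries were past the threshold between FAC and VE. The causes were not tested. The low counts of CON and 3 libraries a group limit what could be detected.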
